A study of Mus musculus with 6 samples.

Results

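The *Snrpn* and *Peg3* imprinted domains are both on mouse chromosome 7. They are described here by the ZFP57 and KAP1 ChIP-seq peaks that lie in the gene bodies of 8 imprinted genes, or within 20 kb on either side of them. *Snrpn*, *Ndn*, *Magel2*, *Mkrn3* and *Ube3a* belong to the Prader-Willi/Angelman domain, and *Peg3*, *Usp29* and *Zim1* to the *Peg3* domain. Of the 123233 peaks of the series, 27 fell into these windows, 15 of them in the Prader-Willi/Angelman domain and 12 in the *Peg3* domain. They were 6 of the 10667 ZFP57 peaks of JB1, 3 of the 1318 ZFP57 peaks of BJ1, 6 of the 38713 KAP1 peaks of JB1 and 12 of the 72535 KAP1 peaks of BJ1.

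JB1 and BJ1 are male embryonic stem cell (ESC) lines from F1 hybrids of the mouse strains JF1 and C57BL/6 (B6). In JB1 the maternal genome is that of JF1 and the paternal one that of B6, in BJ1 the parents are exchanged, and both were grown without feeder cells in medium with leukemia inhibitory factor. Chromatin of either line was precipitated with an antibody against ZFP57 and with an antibody against KAP1, and each of these 4 samples is a single library of a single line. No gene was deleted and no agent was tested in these cells. There is therefore no replicate error, and no difference between the lines or the antibodies was tested. The lists give positions only, without a score, a read number or the allele, and the depth behind them is unknown.

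Genomic imprinting is the expression of a gene from the allele of a single parent, and it depends on imprinting control regions (ICRs), whose DNA is methylated on one parental allele. The ICR of the Prader-Willi/Angelman domain lies at the promoter of *Snrpn* and that of the *Peg3* domain at the promoter of *Peg3*, and both carry their methylation on the maternal allele. ZFP57 is a KRAB zinc-finger protein that binds the methylated hexanucleotide TGCCGC and recruits KAP1 (TRIM28), a co-repressor that brings in H3K9 methylation. *Snrpn* encodes a protein of small nuclear ribonucleoproteins, *Ndn* and *Magel2* encode MAGE family proteins, and *Mkrn3* encodes a makorin RING finger protein, all expressed from the paternal allele. *Ube3a* encodes a ubiquitin ligase that is expressed from the maternal allele in neurons. *Peg3* encodes a zinc-finger protein and *Usp29* a protein of the ubiquitin-specific protease family, both paternally expressed, whereas the zinc-finger gene *Zim1* is expressed from the maternal allele.

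Motifs were searched as exact matches to TGCCGC and to its variant GGCCGC on both strands of mm9, where a motif on the reverse strand reads GCGGCA or GCGGCC. Runs of at least 2 motifs with starts less than 38 bp apart are called clusters. This distance is that of the study, which reported it from ZFP57 peaks of these data. The ICR of *Snrpn* held 3 clusters and that of *Peg3* held 4, and all 7 were inside peaks of all 4 lists. They are shown on the forward strand with 10 bases on either side and the motifs in capitals, because peaks of all 4 lists cover each of them. The same peaks also cover motifs outside clusters, which are not shown. The clusters lie at chr7:67149051-67149080, chr7:67149395-67149454 and chr7:67149588-67149647 for *Snrpn*, and at chr7:6681964-6682012, chr7:6682383-6682439, chr7:6682763-6682798 and chr7:6682853-6682893 for *Peg3*.
Snrpn 1: atagcccgcaGGCCGCGGCAacagcactcc
Snrpn 2: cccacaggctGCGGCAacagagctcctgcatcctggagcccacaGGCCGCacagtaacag
Snrpn 3: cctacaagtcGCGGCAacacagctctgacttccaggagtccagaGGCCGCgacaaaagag
Peg3 1: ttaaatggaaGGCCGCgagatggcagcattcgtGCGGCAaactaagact
Peg3 2: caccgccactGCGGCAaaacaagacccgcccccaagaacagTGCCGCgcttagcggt
Peg3 3: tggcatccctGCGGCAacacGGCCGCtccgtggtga
Peg3 4: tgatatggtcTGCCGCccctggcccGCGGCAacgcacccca

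Each *Snrpn* cluster joined a TGCCGC on the reverse strand to a GGCCGC on the forward strand. The starts were 4 bp apart in the first cluster, where the hexanucleotides share bases, and 34 bp apart in the other two. At *Peg3*, clusters 1 and 3 also paired a TGCCGC with a GGCCGC, whereas clusters 2 and 4 held a TGCCGC on either strand. The distances between the starts at *Peg3* were 23, 31, 10 and 15 bp.

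All 4 lists had a single peak at the *Snrpn* ICR. This peak covered chr7:67148701-67150350 (1650 bp) in the ZFP57 list of JB1 and in the KAP1 lists of both lines, and chr7:67148851-67150350 (1500 bp) in the ZFP57 list of BJ1. The peaks ended at the same position in all lists and started at the same position in 3 of them, on a grid of 150 bp. They covered the annotated 5′ end of *Snrpn* transcripts, including a UTR, and lay within the gene, since the annotation also holds upstream starts. Of the ZFP57 peaks, only 173 of JB1 and 18 of BJ1 were wider than those at *Snrpn*, whereas 3891 KAP1 peaks of JB1 and 4398 of BJ1 were wider than theirs.

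At *Peg3*, the lists differed more in their edges. The ZFP57 list of JB1 had a peak of 750 bp at chr7:6681751-6682500, in an intron, and a peak of 600 bp at chr7:6682651-6683250, over the first exon. In BJ1, a single ZFP57 peak of 1500 bp was present at chr7:6681601-6683100, which spans the gap of 1 window between the JB1 peaks. The KAP1 peaks were at chr7:6681451-6683400 in JB1 (1950 bp) and at chr7:6681451-6683250 in BJ1 (1800 bp), and reached beyond the ZFP57 peaks of their own line on both sides. When the peaks that are 1 window apart are joined, the ZFP57 peak of JB1 is 1500 bp wide as well. All 4 lists shared 1500 bp at *Snrpn* and 1200 bp at *Peg3*.

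**Figure D1:**
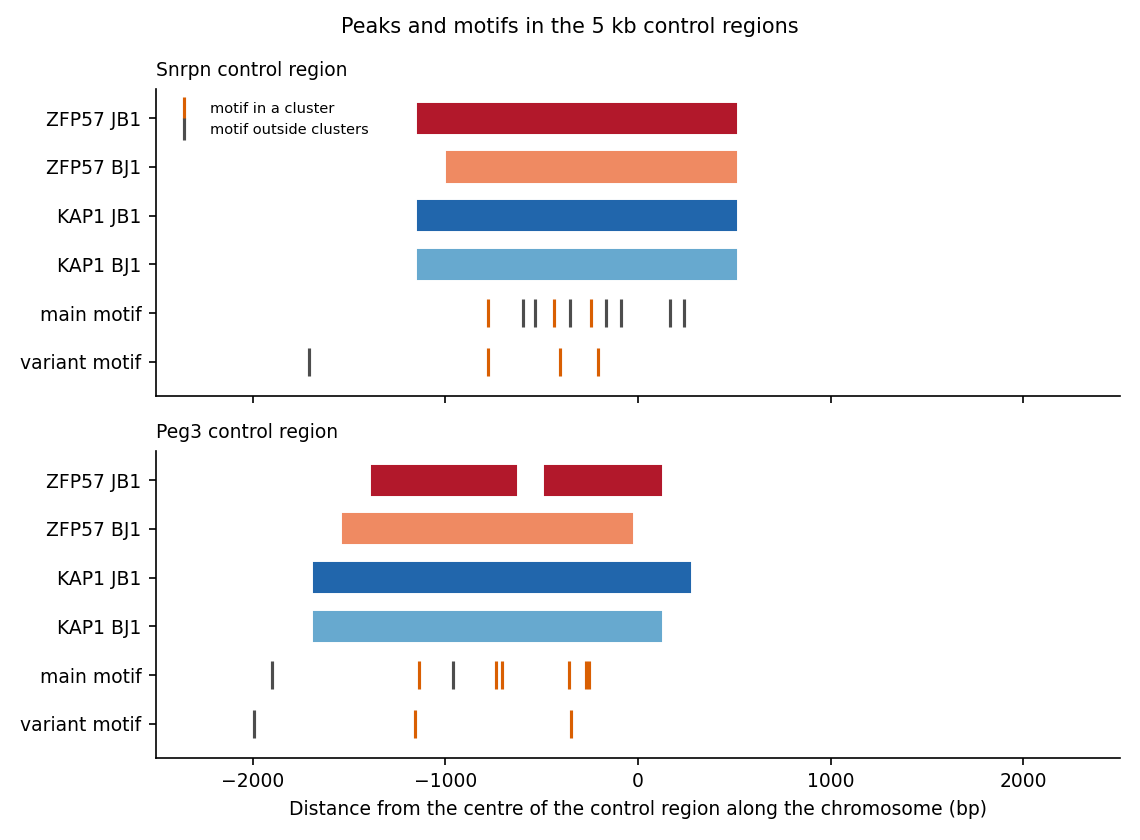
Peaks of the 4 lists (bars) and motifs (ticks) in the 5 kb around the centre of the *Snrpn* and *Peg3* control regions, against the distance from that centre in bp along the chromosome. The main motif is TGCCGC, the variant motif is GGCCGC, and ticks in orange belong to a cluster. The peaks of all lists lie on the same 1650 to 1950 bp, and 22 of the 25 motifs lie inside them.

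To compare the control regions with the rest of the domains, a window of 5 kb was centred on a fragment of the *Snrpn* ICR and on the annotated start of *Peg3*. The fragment is the stretch between the study's primers Snrpn1For1 and Snrpn1Rev1 (chr7:67149603-67150079, 477 bp), and contains 3 TGCCGC and 1 GGCCGC in mm9. The 3 TGCCGC, which the study mutated in its transgene, lie outside the clusters shown above. The study took this fragment from the ZFP57 peak at the ICR, so that the presence of peaks in the *Snrpn* window is given by its choice and the coverage there is a description. At *Snrpn*, the share of the 5 kb covered by peaks was 33% for ZFP57 in JB1, 30% for ZFP57 in BJ1, and 33% for KAP1 in both lines. At *Peg3*, it was 27% and 30% for ZFP57 in JB1 and BJ1, and 39% and 36% for KAP1. These shares depend on the size of the window, since the peaks lie wholly inside it.

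The rest of the windows held 422.571 kb in the Prader-Willi/Angelman domain. There, ZFP57 peaks covered 0.102% in JB1 and 0.0710% in BJ1, and KAP1 peaks covered 0.669% and 1.17%. In the 132.589 kb of the rest of the *Peg3* domain, ZFP57 peaks covered 0.226% in JB1 and none of the sequence in BJ1, and KAP1 peaks covered 0.905% in JB1 and 1.70% in BJ1. Over the whole genome, the lists covered 0.259% (ZFP57, JB1), 0.0345% (ZFP57, BJ1), 1.34% (KAP1, JB1) and 2.17% (KAP1, BJ1), and over 5 kb at the starts of all protein-coding genes 0.227%, 0.0517%, 0.777% and 2.63%, in the same order. In the gene windows outside the control regions, coverage was thus below that of the genome in the ZFP57 list of JB1 and in both KAP1 lists. In the ZFP57 list of BJ1 it was 0.0540% over both domains, above the genome, which comes from a single peak. This order depended on the sequence taken as the rest. When the rest was the whole span of both domains, with the sequence between the gene windows, it was covered to 0.885% by ZFP57 and 1.40% by KAP1 in JB1, above the genome, and to 0.00872% by ZFP57 and 1.87% by KAP1 in BJ1, below it. All these values are below those of the control regions.

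**Figure D2:**
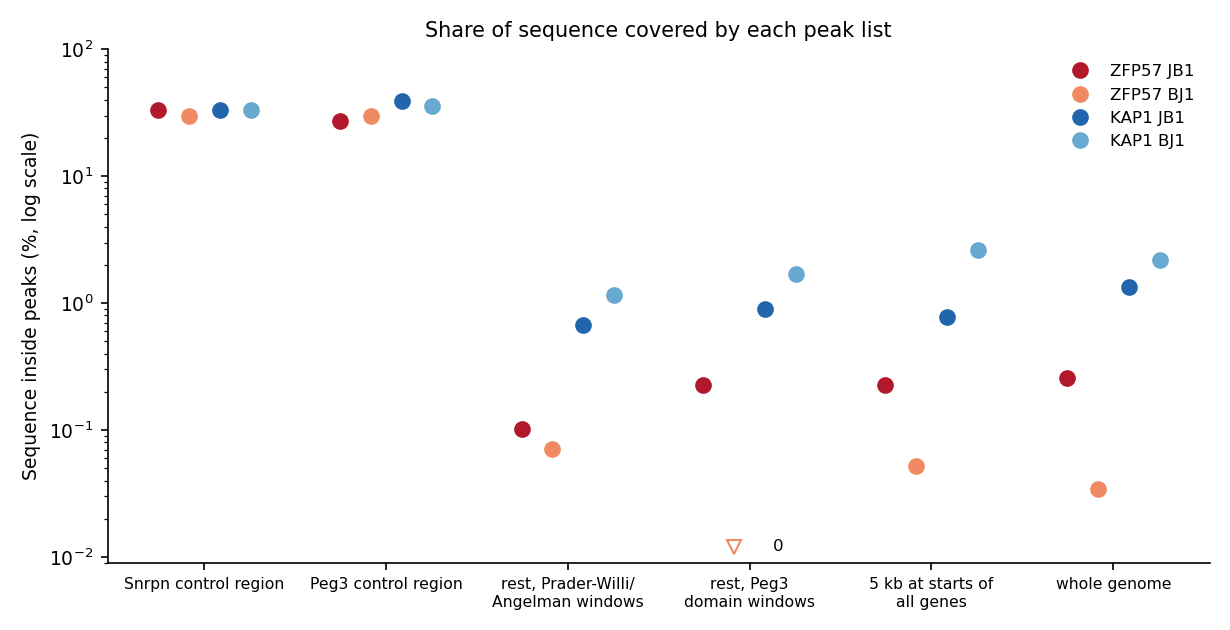
Share of the sequence inside peaks of each list (percent, log axis) in both 5 kb control regions, in the rest of the windows of either domain, in 5 kb at the starts of all protein-coding genes and in the whole genome. Each point is a single library and the open triangle marks a share of 0. The control regions lie between 27% and 39% in all lists, whereas no other set exceeds 2.63%.

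Motifs and peaks coincided in the control regions and mostly did not elsewhere in the domains. The *Snrpn* control window held 14 motifs, 10 TGCCGC and 4 GGCCGC, and the *Peg3* window held 11, 8 TGCCGC and 3 GGCCGC. Of these 25 motifs, 22 (88%) were inside peaks of all 4 lists and 3 were outside every peak. The 1650 bp that the ZFP57 peaks of both lines span held 13 motifs at *Snrpn* (7.88 per kb) and 9 at *Peg3* (5.45 per kb). In the rest of the windows there were 68 motifs, or 0.118 per kb in the Prader-Willi/Angelman domain and 0.136 per kb in the *Peg3* domain, beside 0.125 per kb in the genome. None of the 68 was inside peaks of all 4 lists and 60 were outside every peak. In the whole genome, 0.364% of 319818 motifs were inside peaks of all 4 lists and 12.6% inside a peak of any list.

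Clusters of motifs were also present in the rest of the domains. There were 7 of them: 1 at the start of *Zim1*, 1 at the start of *Ube3a*, 1 in *Ndn*, 2 in *Mkrn3*, and 2 in the gene *Gm7367* upstream of *Snrpn*. None was inside a ZFP57 peak, and a single one, at *Ube3a*, was inside a KAP1 peak, of BJ1. Over the genome, only 4.15% of 16156 clusters were inside a ZFP57 peak of JB1 and 1.35% inside one of BJ1, 1.26% were inside peaks of all 4 lists and 82.4% were inside no peak, so that clusters without a peak are the usual case. The clusters at *Ndn* (chr7:69493516-69493544), *Mkrn3* (chr7:69564080-69564109) and *Ube3a* (chr7:66484591-66484619) are shown on the forward strand for comparison with those of the ICRs. All 3 overlap coding sequence, and that of *Ube3a* also overlaps a UTR.
Ndn body: cagcaGGCCGCagaggagGGCCGCgccca
Mkrn3 body: gcataGCGGCAaaGCGGCAGCGGCAttggc
Ube3a start: gagGCGGCCGCagctgcgagGGCCGCagc

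The cluster in *Mkrn3* is made of 3 TGCCGC on the reverse strand within 20 bp, which no cluster of either ICR matches in number. With TGCCGC alone counted, 251 clusters of the genome held at least 3 copies, of which 11.2% were inside peaks of all 4 lists and 66.5% were inside no peak. The clusters of *Ndn* and *Ube3a* are made of GGCCGC alone.

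Of the 8 genes, *Snrpn* and *Peg3* had a site of all 4 lists in their window, that is, a region where the ZFP57 peaks of both lines overlap each other and a KAP1 peak of each line. Such a site was present at 2.15% of 22367 protein-coding genes, and at 0.13% in the 5 kb centred on their start. By this narrower rule *Peg3* counts and *Snrpn* does not, since the *Snrpn* site lies 134.8 kb from the annotated start of the gene. A ZFP57 peak of JB1 was in the window of 4 genes (*Snrpn*, *Peg3*, *Zim1* and *Ube3a*; 17.3% of all genes), and a ZFP57 peak of BJ1 in that of 3 genes (*Snrpn*, *Peg3* and *Ube3a*; 4.18%). KAP1 peaks were in the windows of 5 genes in JB1 (47.1% of all genes) and of 4 genes in BJ1 (78.8%). The window of *Snrpn* measures 198 kb and that of *Ndn* 41.7 kb, so that the genes had unequal room for a peak. In these counts *Usp29* is placed by its GENCODE M1 gene, whereas its RefSeq promoter, described below, overlapped peaks of all 4 lists.

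**Figure D3:**
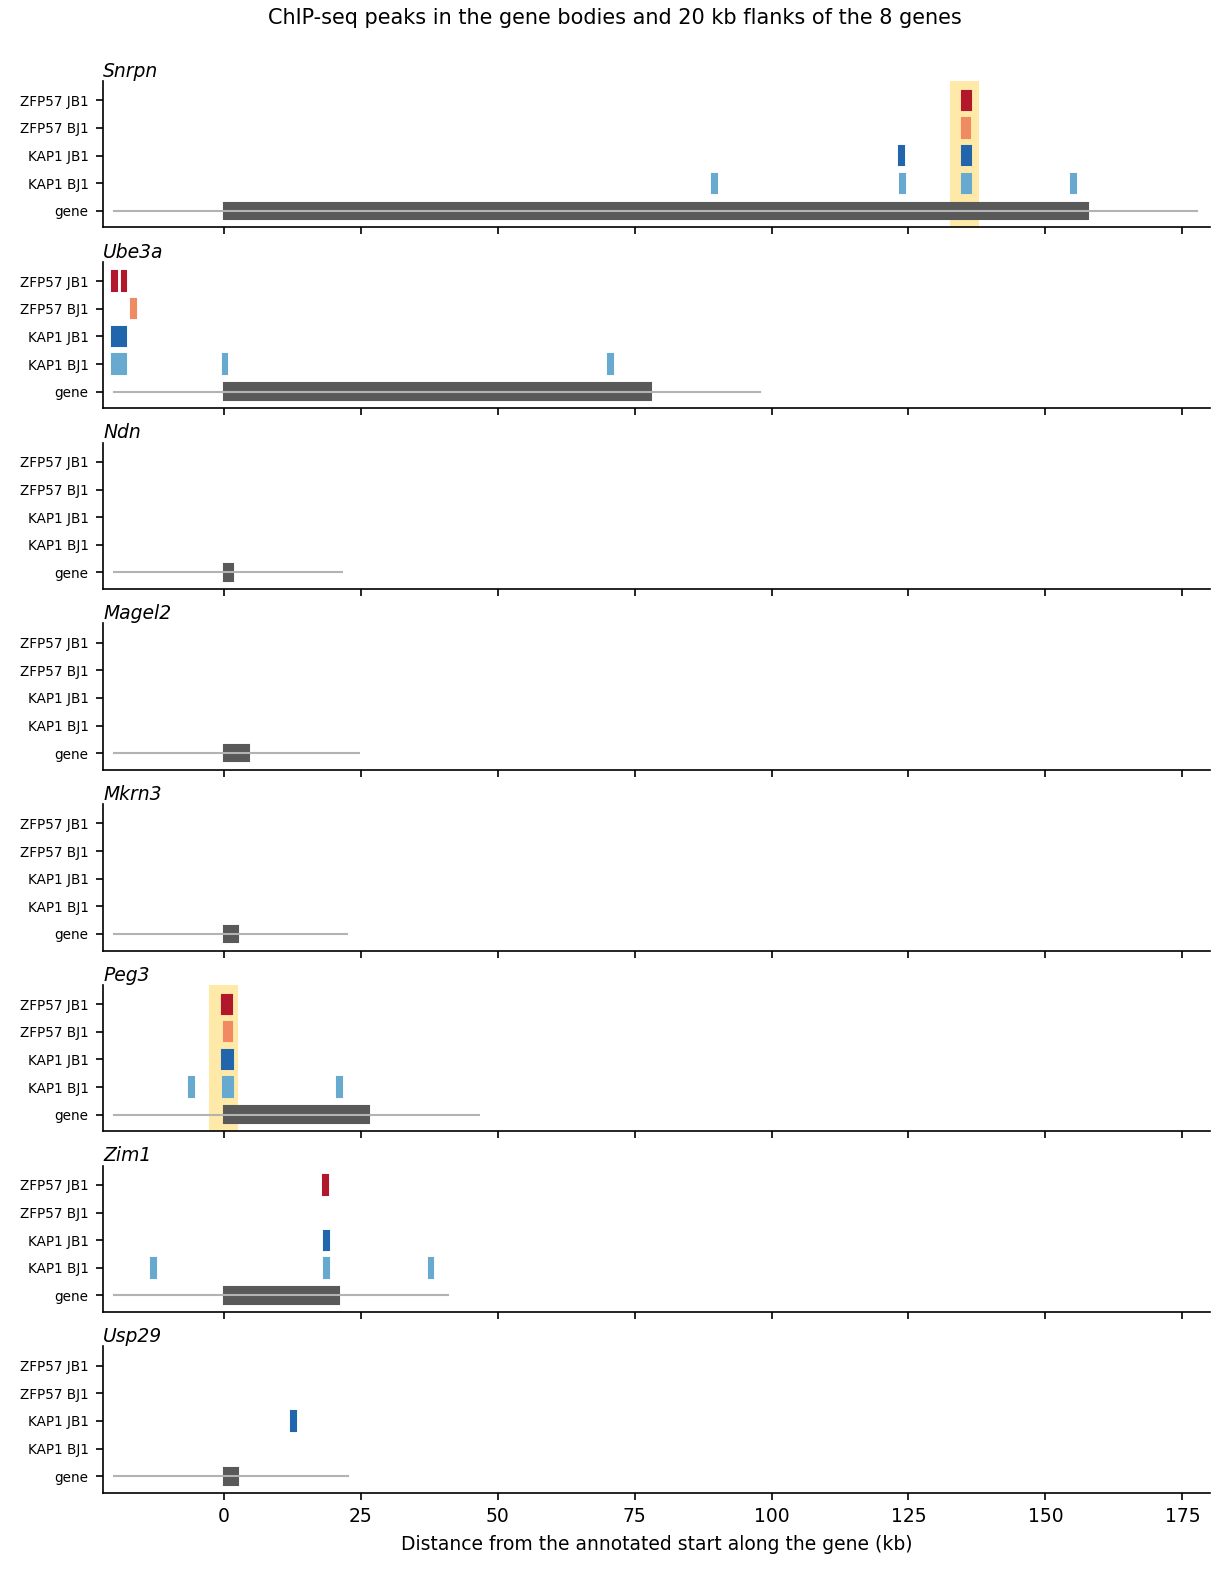
Peaks of the 4 lists in the gene body (grey bar) and 20 kb flanks (grey line) of each of the 8 genes, against the distance in kb from the annotated start along the gene. The control regions are shaded, and narrow peaks are widened to stay visible. All lists coincide in the shaded regions, and no peak lies in the windows of *Ndn*, *Magel2* and *Mkrn3*.

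Of the 18 peaks outside the control regions, 7 held a motif and 11 held none, and the median width was 525 bp, beside 1650 bp for the 9 peaks in the control regions. In the whole lists, a motif was present in 52.4% of the ZFP57 peaks of JB1, 49.1% of those of BJ1, and 39.4% and 28.0% of the KAP1 peaks of JB1 and BJ1, and the median width was 450 bp for ZFP57 and 600 bp for KAP1. The ZFP57 peaks outside the control regions all measured 300 bp, the smallest width in either ZFP57 list. Along *Snrpn*, only KAP1 peaks were found outside the ICR. A peak in an intron was present in both lines, at chr7:67161001-67161600 in JB1 (600 bp) and chr7:67161001-67161450 in BJ1 (450 bp). BJ1 had a further KAP1 peak of 600 bp over coding sequence at chr7:67129651-67130250 and another of 750 bp in an intron at chr7:67195201-67195950. None of these 4 peaks held a TGCCGC or GGCCGC.

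At *Zim1*, ZFP57 was listed in JB1 only and KAP1 in both lines. The ZFP57 peak of JB1 was at chr7:6630451-6630750 (300 bp), over coding sequence and 18.4 kb from the start of the gene. The KAP1 peaks at the same place were at chr7:6630001-6630900 in JB1 (900 bp) and chr7:6630151-6630750 in BJ1 (600 bp), with 3 and 2 motifs that were not clustered. The ZFP57 list of BJ1 had its nearest peak to the start of *Zim1* 32.4 kb away, at *Peg3*. The ZFP57 peak of JB1 held a single TGCCGC, shown here in the 36 bp at chr7:6630449-6630484 because it is the only motif under ZFP57 in the *Peg3* domain outside the ICR.
Zim1 coding: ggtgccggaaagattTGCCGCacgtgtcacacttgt

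Further peaks of the *Peg3* domain were in single lists. KAP1 peaks of BJ1 were found over the coding sequence of *Peg3* at chr7:6661801-6662250 (450 bp), upstream of *Peg3* at chr7:6688801-6689250 (450 bp) and downstream of *Zim1* at chr7:6610951-6611700 (750 bp). A KAP1 peak of JB1 was at chr7:6926401-6926700 (300 bp), 12.5 kb from the annotated start of *Usp29*, and was the sole peak in the window of this gene. None of these 4 held a motif. GENCODE M1 has *Usp29* as a short gene at chr7:6913871-6916480, whereas its RefSeq promoter, a sequence of the later build GRCm38, was found in mm9 at chr7:6683044-6683343, where it overlaps the promoter of *Peg3*. Between the windows of *Peg3* and *Usp29*, in 191 kb, there were 2 KAP1 peaks of BJ1 and no peak of the other lists. At the rates of the whole genome, this length would hold 5.21 KAP1 peaks of BJ1, 2.78 of JB1, 0.766 ZFP57 peaks of JB1 and 0.0947 of BJ1, so that nothing is read from the absence of ZFP57.

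Upstream of *Ube3a*, a group of peaks shared by JB1 ZFP57 and KAP1 of both lines lay in repeated sequence. In JB1, ZFP57 peaks of 300 bp were at chr7:66463951-66464250 and chr7:66465751-66466050, the nearer of them 18.1 kb upstream of the start, and a KAP1 peak of 2550 bp spanned both (chr7:66463801-66466350). BJ1 had a KAP1 peak of 2700 bp at the same place (chr7:66463651-66466350). None of the 50-base windows of either ZFP57 peak was unique in mm9, and single windows occurred at up to 1170 places. Of the windows of the KAP1 peaks, 4.28% were unique in JB1 and 4.04% in BJ1. How the authors placed reads that match several positions is not given in the sources used here, and the part of this in these peaks was not tested. The second ZFP57 peak held a TGCCGC on the reverse strand, shown here at chr7:66465928-66465963 because it is the only motif under ZFP57 in the Prader-Willi/Angelman windows outside the ICR.
Ube3a upstream: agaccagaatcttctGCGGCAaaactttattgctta

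BJ1 had a ZFP57 peak of its own at chr7:66467551-66467850 (300 bp), 16.3 kb upstream of *Ube3a*. It overlapped no peak of another list, held no motif, and had 98.4% unique 50-base windows. At the start of *Ube3a*, a KAP1 peak of 600 bp was present in BJ1 only (chr7:66484051-66484650). It had a G+C content of 69.3% and the cluster of 3 GGCCGC shown above. A KAP1 peak of 300 bp in an intron (chr7:66554551-66554850), also in BJ1 only, had no unique 50-base window, and its windows occurred at up to 9685 places.

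No peak of any list was in the windows of *Ndn*, *Magel2* and *Mkrn3*, which neighbour each other at the far end of the domain. The nearest peaks to the start of *Ndn* were a KAP1 peak of BJ1 at 56.5 kb and a ZFP57 peak of JB1 at 72.9 kb, and the nearest ZFP57 peak of BJ1 was 1779 kb away. Those of *Mkrn3* were a KAP1 peak of BJ1 at 44.1 kb and a KAP1 peak of JB1 at 90.6 kb. Windows without any peak were present at 18.7% of all protein-coding genes, and at 25.9% of the 8861 genes whose window measures 40 to 50 kb, as do those of these 3 genes. Each of the 3 windows overlaps its neighbour, so that they form a single stretch without a peak and are not separate cases.

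Peaks in the control regions were in both lines throughout, and peaks elsewhere were less uniform. Of the 6 ZFP57 peaks of JB1, 3 overlapped a ZFP57 peak of BJ1 (5.4% of the whole list), and all 3 were in the control regions. Of the 3 ZFP57 peaks of BJ1, 2 overlapped a ZFP57 peak of JB1 (43.6% of the list), again those in the control regions, and the same 2 overlapped a KAP1 peak of JB1 (52.5%) and of BJ1 (55.7%). All 6 ZFP57 peaks of JB1 overlapped a KAP1 peak of JB1 (60.5% of the list) and of BJ1 (58.3%), and 3 of them overlapped a peak of every other list (5.11%), as did 2 of the 3 of BJ1 (41.2%). Within a line, 4 of the 6 KAP1 peaks of JB1 overlapped ZFP57 (14.1% of the list), as did 2 of the 12 of BJ1 (1%). Across the lines, 2 of the 6 KAP1 peaks of JB1 overlapped a ZFP57 peak of BJ1 (1.76%), and 4 of the 12 of BJ1 overlapped a ZFP57 peak of JB1 (7.36%). Of the KAP1 peaks, 5 of 6 in JB1 overlapped a KAP1 peak of BJ1 (85.9% of the list), and 5 of 12 in BJ1 overlapped a KAP1 peak of JB1 (45.3%). The lists differ in length, and presence in a single list cannot be told apart from a difference in depth.

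In the sequence, the 9 peaks of the control regions had only unique 50-base windows, and 5 of the 18 other peaks had fewer than 50% unique windows. These shares were not computed over the whole lists, so that there is no background to read them against. G+C content was 53.6% over the site of *Snrpn* and 57.8% over that of *Peg3*, beside a median of 49.3% over all 541 sites of all 4 lists in the genome. The ratio of observed to expected CpG was 0.471 at *Snrpn* and 0.583 at *Peg3*, with a median of 0.547 over the sites.

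Among the 541 sites, those of *Snrpn* and *Peg3* were wide and rich in motifs. Both measured 1650 bp, beside a median of 750 bp, and shared rank 13 in width. With 13 motifs, *Snrpn* had rank 5, and with 9, *Peg3* had rank 12, whereas the median site held 2. *Peg3* was the sole site with 4 clusters, *Snrpn* was among 5 sites with 3 clusters, and 350 sites had none. The cluster distance and the variant motif come from the study, which reported them for ZFP57 peaks of these data, so that these counts are a description. With TGCCGC only, the site of *Snrpn* had 0 clusters and that of *Peg3* had 2. Of all windows of 1650 bp in the genome, 0.0185% held at least 13 motifs and 0.0742% at least 9.

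The bases next to the motif were also alike at *Snrpn*, as clusters 1 to 3 show. Read along the motif, 6 of its 10 TGCCGC were preceded by TGT, and 8 by T. At *Peg3*, 1 of 7 was preceded by TGT and 5 by T. In the other sites of all 4 lists, 9 of 999 TGCCGC (0.901%) were preceded by TGT and 43.1% by T, and in the genome 1.20% and 21.1%. This context was chosen after the sequences were seen and the copies at *Snrpn* are close to each other, so that the counts are a description.

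Other loci with a maternally methylated control region were compared in the same way. Of 14 such loci, 12 were annotated, and 9 of these had a site of all 4 lists in their window. Those sites were 750 to 2250 bp wide, with a median of 1050 bp, and held 2 to 15 motifs, with a median of 7, where *Gnas*, which had 2 sites, entered with the one nearer to its start. *Mest* was both wider (2250 bp) and richer in motifs (15) than *Snrpn*, and *Igf2r* had the same width as both (1650 bp) and 9 motifs, as *Peg3*. No site was found at *H13*, *Mcts2* and *Inpp5f*. The windows of *H13* and *Mcts2* held no ZFP57 peak, whereas that of *Inpp5f* held 2 of JB1 and 1 of BJ1 that did not form a site.

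**Figure D4:**
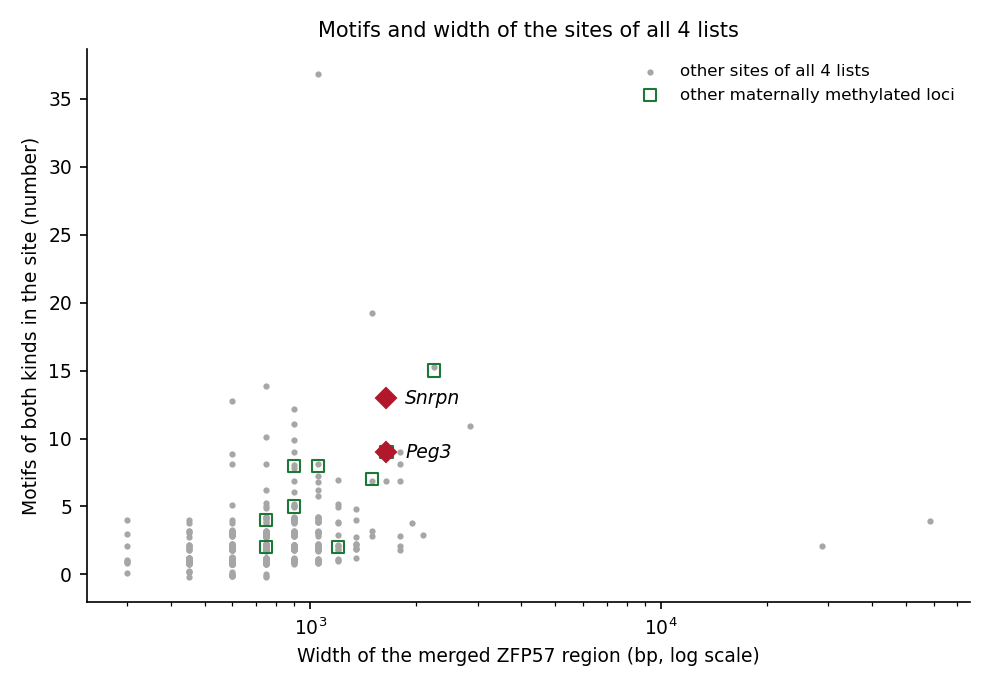
Number of motifs of both kinds against the width of the site (bp, log axis) for the 541 sites of all 4 lists, with a small vertical jitter on the grey points. *Snrpn* (13 motifs) and *Peg3* (9 motifs) are red diamonds at 1650 bp, and green squares are the sites of 9 other maternally methylated loci, of which *Igf2r* lies under *Peg3*. Few sites lie above *Snrpn* in motif number.

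By the summed widths of the peaks of a site in the 4 libraries, the sites most like *Snrpn* were 68.1 kb from the start of *Arhgap10* (chr8:79972201-79973700), at *Igf2r* (chr17:12934051-12935700) and 71.5 kb from *Rtl1* (chr12:110765251-110767050), at distances of 0.40, 0.62 and 0.67 on the log2 scale. Those most like *Peg3* were 58.5 kb from *Gm9312* (chr12:24995551-24996900), at *Zrsr1* (chr11:22871851-22873050) and again near *Rtl1*, at 0.53, 0.55 and 0.57. The site near *Arhgap10* held 19 motifs, more than *Snrpn*, whereas that at *Zrsr1* held 2. The ranking depended on how split peaks are treated, since the ZFP57 peaks of JB1 at *Peg3* were summed to 1350 bp. With peaks 1 window or less apart joined in every list, an alternative added after seeing the data, a pair of neighbouring sites whose closest gene is *Nhlrc1* came first for *Peg3*, at 0.21, followed by *Igf2r* at 0.55. For *Snrpn*, *Arhgap10* was again first, at 0.40, followed by the pair near *Nhlrc1* at 0.42. The sites ranked were those before joining, and this pair had the same joined widths in all 4 lists, so that it can be a single region.

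The RefSeq promoters (250 bases before to 50 after the start, GRCm38) of all 8 genes were matched to mm9. Those of *Peg3*, *Usp29* and the main start of *Snrpn* (chr7:67150036-67150335) overlapped peaks of all 4 lists, and that of *Ube3a* overlapped the KAP1 peak of BJ1 only. The promoters of *Zim1*, *Ndn*, *Magel2*, *Mkrn3* and the 3 other starts of *Snrpn* overlapped no peak. Motifs were inside the promoters of *Zim1* (1 TGCCGC and 1 GGCCGC), the main start of *Snrpn* (1 TGCCGC) and another start of *Snrpn* (1 GGCCGC), and at least 1 motif was present in 26.8% of all 32851 RefSeq promoters. The motifs of the *Peg3* control region lay next to its promoter and not inside it.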

How the data were processed

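ZFP57 and KAP1 ChIP-seq peak lists of JB1 and BJ1 ESCs were used, with 1 library per line and antibody. Neither of the 2 input libraries was used. Single-end reads of 50 bp were aligned by the authors to mm9 allowing up to 2 mismatches, and peaks were called per library with MACS at a *P*-value below 1e-05. The submitters' processing notes name CASAVA 1.8.2, Bowtie 0.12.7, SAMtools 0.1.18 and bedtools 2.14.3-1. The lists as deposited by the authors hold chromosome, start and end, on a grid of 150 bp, and read depth is unknown.

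Gene positions were from GENCODE M1 (mm9), with 20 kb flanks. Peaks sharing at least 1 bp were counted as overlapping. Motifs were counted when wholly inside a region, and 50-base windows were compared with both strands of mm9. No test was run, since the lists hold positions without values and each group is 1 library. All 8 genes were described, and 3 sites elsewhere were named by Euclidean distance of log2 widths. Overlaps, motifs, clusters and 50-base windows were tested on simulated data. Genes and lists were chosen with earlier results of these data known. Other flanks, control windows, overlaps, width thresholds and motif rules were tried. Python 3.11.15, numpy 2.4.6, pandas 2.3.3 and matplotlib 3.10.9 were used.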

Additional observations from a re-analysis of the deposited data

How the results depend on the processing

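The sites of all 4 lists at *Snrpn* and *Peg3* were found with every flank, overlap and width threshold tried. The JB1 ZFP57 peaks in the windows were 3 when only the widest 50% of each list were kept, and with a flank of 50 kb the KAP1 peaks were 15 in JB1 and 25 in BJ1. The coverage of the control regions followed the window size by construction. In 2 kb it was 62.0% and 61.7% for ZFP57 and 69.5% and 65.7% for KAP1, in JB1 and BJ1, and in 10 kb it was 15%, 15%, 18% and 17.25%. In the rest, the widest 50% left 0% for ZFP57 in both lines. Over the whole span of the domains, the rest was covered to 0.885% by ZFP57 in JB1 and 0.00872% in BJ1, and by KAP1 to 1.40% in JB1 and 1.87% in BJ1, so that both JB1 lists turned from below to above their share of the genome, and ZFP57 in BJ1 from above to below. Without peaks of under 50% unique 50-base windows, an alternative added after seeing the data, the KAP1 shares were 0.324% and 0.838%, and that of ZFP57 in JB1 fell from 0.131% to 0.0540%. Clusters in the control regions fell from 7 to 4 with a distance under 25 bp and to 2 with TGCCGC only, both at *Peg3*. Joining peaks 1 window apart, also added later, gave 1500 bp for the JB1 ZFP57 peak at *Peg3*. No paired analysis was possible because the groups share only the replicate number 1 and the lists hold positions without values to fit. Presence or absence in these lists reflects a single threshold per library at unknown depth, and the lists hold no allele, so that binding on the maternal or paternal allele is not seen in them.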

Other observations

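Between the windows of *Ube3a* and *Snrpn* lie the tandem arrays of the small nucleolar RNA genes SNORD115 and SNORD116, which come from the transcripts that start at *Snrpn*. In GENCODE M1, SNORD116 has 27 genes in the 139 kb at chr7:66928831-67068008. The ZFP57 list of JB1 had 9 peaks there, which covered 22.1 kb, and 7 of them overlapped a SNORD116 gene, without a background share to read this against. The widest measured 5700, 5100 and 3300 bp, and only 64, 70 and 93 of the 10667 ZFP57 peaks of JB1 were wider. The ZFP57 list of BJ1 had no peak in the array. At the rates of the whole genome, a stretch of this length would hold 0.559 ZFP57 peaks of JB1 and 0.0691 of BJ1, so that nothing is read from the absence in BJ1. KAP1 had 6 peaks in JB1, which covered 6.30 kb, and 7 in BJ1, which covered 6.15 kb. Of these, 2 of JB1 and 1 of BJ1 overlapped a SNORD116 gene. Of the 6 of JB1, 5 overlapped one of BJ1, near the 85.9% of the whole list. Of the 9 ZFP57 peaks, only 1 overlapped a KAP1 peak, in both lines, and it was also the sole one with a motif. Over the whole list, 60.5% of the ZFP57 peaks of JB1 overlapped KAP1 of JB1, 58.3% overlapped KAP1 of BJ1, and 52.4% held a motif. Of the 50-base windows in these 9 peaks, 11.7% were unique in mm9, and the part of this in the peaks was not tested.

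The SNORD115 array, with 137 genes in 277 kb (chr7:66597596-66874465), held narrower ZFP57 peaks. The ZFP57 list of JB1 had 5 peaks of 300 to 600 bp there, none of them over a SNORD115 gene, and 4 of the 5 overlapped KAP1 peaks of both lines. KAP1 had 6 peaks in JB1 and 8 in BJ1, which covered 9.60 and 10.1 kb. All 6 peaks of JB1 overlapped one of BJ1, near the 85.9% of the whole list. The ZFP57 list of BJ1 had no peak here, where 0.137 would lie at the rate of the genome. Of the 50-base windows in the ZFP57 peaks of JB1, 19.7% were unique. In all, the 2693 kb between the windows of the Prader-Willi/Angelman domain held 25 ZFP57 peaks of JB1, no ZFP57 peak of BJ1, 45 KAP1 peaks of JB1 and 71 of BJ1. At the rates of the whole genome, these would be 10.8, 1.34, 39.3 and 73.6 peaks, so that the KAP1 counts were near those of the genome.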
